A study of Mus musculus with 2 samples.

Results

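The receptors that signal through the common gamma chain are the cell surface proteins through which T cells sense interleukin-2 (IL-2), IL-4, IL-7, IL-9, IL-15 and IL-21. Of these receptors, 7 genes were considered: Il2ra, Il2rb, Il2rg, Il7r, Il4ra, Il21r and Il15ra. They were chosen by name, and their values are those of every probe set that an annotation of the array platform assigns to exactly 1 gene. This gave 12 probe sets for 6 of the 7 genes, out of 34945 probe sets with exactly 1 gene and 45037 probe sets in all. Il2rg, the gene of the shared gamma chain itself, has no probe set that this annotation assigns to it alone and was not analysed here.

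The RNA came from regulatory T cells (Tregs), a CD4+Foxp3+ population that restrains immune responses, sorted from spleens of naive mice aged 10 weeks on the C57BL/6 background. The first sample came from mice carrying a TGF-beta receptor II in dominant negative form (DNR), which blunts the response of cells to this cytokine, and the other from wild-type (WT) mice. Each genotype had 1 Affymetrix array, so no difference below has a replicate check, no test between genotypes exists, and the precision is limited by the number of arrays. The sources used here do not say which promoter drives the dominant negative receptor, how many mice stand behind each RNA, or how Foxp3 served for sorting. The sorting protocol entered for the WT sample names DNR mice, as does that of the DNR sample, whereas the title, source and genotype of the WT sample say WT. The comparison asks how transcript levels in Tregs differ between DNR and WT mice.

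Each cytokine of this family binds a receptor made of the gamma chain and 1 or more private chains. Il2ra encodes the alpha chain of the IL-2 receptor (CD25), which raises its affinity, and Il2rb the beta chain (CD122), which IL-2 and IL-15 share. Il15ra encodes the chain that captures IL-15 and presents it to neighbouring cells, Il7r the alpha chain (CD127) for IL-7, Il4ra the alpha chain for IL-4 and Il21r the chain for IL-21. The kinases JAK1 and JAK3 bound to these chains activate STAT transcription factors, above all STAT5 for IL-2, IL-7 and IL-15, STAT6 for IL-4 and STAT3 for IL-21. Tregs depend on IL-2 for survival and for the maintenance of Foxp3, they make little IL-2 of their own, and they typically carry much CD25 and less CD127 than conventional CD4 T cells.

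Windows around the transcription start were searched for motifs of factors named below, because these sequences are where such factors could act on the receptor genes. The windows hold 250 bases before and 50 after the start and come from RefSeq on the GRCm38.p6 build. They were found for 5 of the 6 genes, with 2 windows for Il15ra, which made 6 windows, and Il2rb was not among them. The motifs, searched on both strands, were TTCNNNGAA for STAT factors, GGAAGTG for ETS factors, TGTTTAC for forkhead factors such as FOXO1, and GTCTAGAC for SMAD factors. A match was found in 3 windows, which are printed here 5′ to 3′ on the strand of the gene, with the matched bases in capitals.
Il7r promoter, chr15:9529827-9530126, minus strand: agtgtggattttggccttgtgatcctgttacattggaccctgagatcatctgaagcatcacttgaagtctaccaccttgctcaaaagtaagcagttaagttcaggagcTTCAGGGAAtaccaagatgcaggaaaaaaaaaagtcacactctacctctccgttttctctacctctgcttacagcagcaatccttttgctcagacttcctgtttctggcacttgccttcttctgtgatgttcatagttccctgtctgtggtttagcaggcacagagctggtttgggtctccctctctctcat
Il2ra promoter, chr2:11642542-11642841, plus strand: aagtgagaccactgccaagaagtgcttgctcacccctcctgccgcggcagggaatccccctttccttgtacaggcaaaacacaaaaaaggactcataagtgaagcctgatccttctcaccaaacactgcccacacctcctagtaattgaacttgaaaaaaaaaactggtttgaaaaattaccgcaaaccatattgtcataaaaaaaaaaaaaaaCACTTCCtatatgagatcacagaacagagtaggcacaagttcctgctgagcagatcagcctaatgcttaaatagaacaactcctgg
Il21r promoter, chr7:125603179-125603478, plus strand: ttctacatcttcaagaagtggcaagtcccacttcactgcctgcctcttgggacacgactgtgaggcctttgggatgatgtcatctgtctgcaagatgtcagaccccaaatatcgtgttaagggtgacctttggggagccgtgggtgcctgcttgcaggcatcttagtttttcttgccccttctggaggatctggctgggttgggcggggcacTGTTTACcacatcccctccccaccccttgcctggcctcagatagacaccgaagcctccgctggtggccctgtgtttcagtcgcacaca
The Il7r window held the STAT match TTCAGGGAA, 142 to 134 bases before the start, and 8.30% of all 32851 windows in the reference held a match to that motif. The Il2ra window held the ETS match on the opposite strand, 36 to 30 bases before the start (11.0% of all windows), and the Il21r window the forkhead match 38 to 32 bases before it (3.65%). The SMAD motif was in none of the 6 windows and in 0.213% of all windows. A match describes the letters of the window and does not show binding.

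In the DNR sample, transcripts of these receptors had nearly the signals of the WT sample. With each gene represented by its brightest probe set, 0 of 6 genes was higher and 0 was lower in DNR Tregs by at least 2-fold, where 4.0% of 11927 measured genes were higher and 2.93% lower by that much. Il7r, Il4ra and Il15ra had the higher signal in DNR Tregs, and Il2ra, Il2rb and Il21r the lower one. The differences spanned 1.08-fold for Il4ra to 1.27-fold for Il21r. All 6 genes were within 1.5-fold, as were 77.4% of measured genes, so for so few genes this count is near what the array as a whole gave. The median log2 ratio of DNR over WT was -0.05 over the 6 genes and 0.01 over all measured genes. A gene is called measured where its brightest probe set exceeded a signal of 110.9 on at least 1 array, and lower signals were raised to this floor. All 6 were above it on both arrays. In RNA of a sorted population, fewer cells that carry a transcript and less of it per cell cannot be told apart.

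Without replicates, the disagreement among probe sets of a gene is the one error these files offer. Its robust SD was 0.39 on the log2 ratio scale, over 3968 genes for which both arrays exceeded the floor at 2 probe sets or more. Differences between mice, between sorts and between hybridisations are not part of it. Of the 12 receptor probe sets, 9 had a log2 ratio closer to 0 than this SD. The array as a whole was similar: of all probe sets with 1 gene above the floor on both arrays, 63.2% were smaller in size than -0.40, a value just past this SD. At the level of probe sets, 2 of 12 were at least 2-fold higher in DNR Tregs, 1 of Il7r and 1 of Il15ra, and 0 were at least 2-fold lower. Among all probe sets with 1 gene above the floor on at least 1 array, 3.93% were higher and 3.3% lower by that much. In each of the 5 genes with more than 1 probe set, all probe sets went the same way. The share of all genes for which this holds was not computed.

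**Figure D1:**
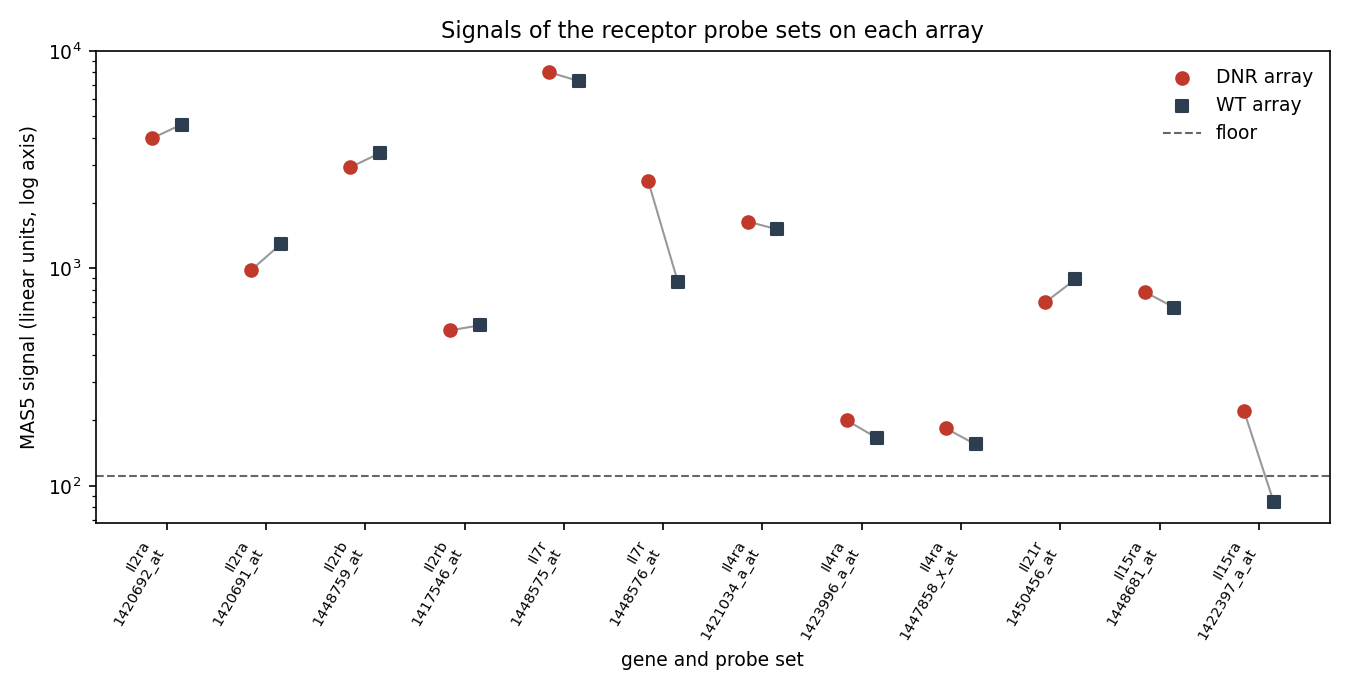
MAS5 signal (log axis) of each of the 12 receptor probe sets, with the DNR array as circles on the left and the WT array as squares on the right of each pair, and the floor of 110.9 as a dashed line. The lines are nearly flat except for the second Il7r probe set, with 2517 on the DNR and 863 on the WT array, and the second Il15ra probe set, whose WT signal of 84.4 lies under the floor.

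The chains of the IL-2 receptor were slightly lower in DNR Tregs. By its brighter probe set (1420692_at), Il2ra read 3969 in DNR Tregs and 4591 in WT Tregs. This is a log2 ratio of -0.21, a 1.16-fold lower signal. Its other probe set (1420691_at) read 983 in DNR and 1296 in WT Tregs, a log2 ratio of -0.40. Both probe sets thus put CD25 transcripts lower in the DNR sample, the second by just over the probe set SD of 0.39. Il2rb read 2922 in DNR and 3398 in WT Tregs (1448759_at), a log2 ratio of -0.22. The other Il2rb probe set (1417546_at) was nearly level, with 519 in DNR and 547 in WT Tregs. The differences of Il2ra and Il2rb by their brighter probe sets were almost the same size, and each was smaller than the SD between probe sets.

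Il15ra, the gene of the chain that presents IL-15, went the other way from the IL-2 receptor chains by a small amount. Its brighter probe set (1448681_at) read 781 in DNR Tregs and 661 in WT Tregs, with a log2 ratio of 0.24. The other one (1422397_a_at) had 222 in DNR Tregs and 84.4 in WT Tregs, where it was below the floor. It was therefore at least 2-fold higher in DNR Tregs, a bound just past the threshold that depends on the floor: its log2 ratio was 0.41 when the floor was set at the 60th percentile, and 1.40 with no floor. The annotation ties the brighter probe set to the RefSeq transcript NM_133836 and the dimmer one to NM_008358, both current transcripts of Il15ra. Which of its many other transcripts each probe set detects was not tested. Il15ra and Il2ra are next to each other among the protein-coding genes of chromosome 2, and their log2 ratios by the brightest probe sets were 0.24 and -0.21.

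Il7r gave the least settled reading of the family. Its brighter probe set (1448575_at) was nearly level, with 7985 in DNR Tregs and 7279 in WT Tregs and a log2 ratio of 0.13. Its other probe set (1448576_at) read 2517 in DNR Tregs against 863 in WT Tregs, 2.92-fold higher with a log2 ratio of 1.54. Both probe sets were far above the floor and both were higher in the DNR sample, but they disagreed on the size. The difference between their log2 ratios was 1.41, and of the 3968 genes with at least 2 such probe sets 250 (6.30%) had a range at least as wide, against a median range of 0.51. The median over both probe sets gave Il7r a log2 ratio of 0.84, under 2-fold. In contrast, the ranges were 0.19 for Il2ra, 0.14 for Il2rb and 0.15 for Il4ra. RNA quality differed between the arrays: the ratio of the 3′ to the 5′ control probe set of beta-actin was 6.31 on the DNR and 4.98 on the WT array, and that of Gapdh was 2.28 on the DNR and 2.07 on the WT array. The part of this difference in the Il7r values was not tested, and the sources used here do not say where in the transcript each Il7r probe set lies.

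**Figure D2:**
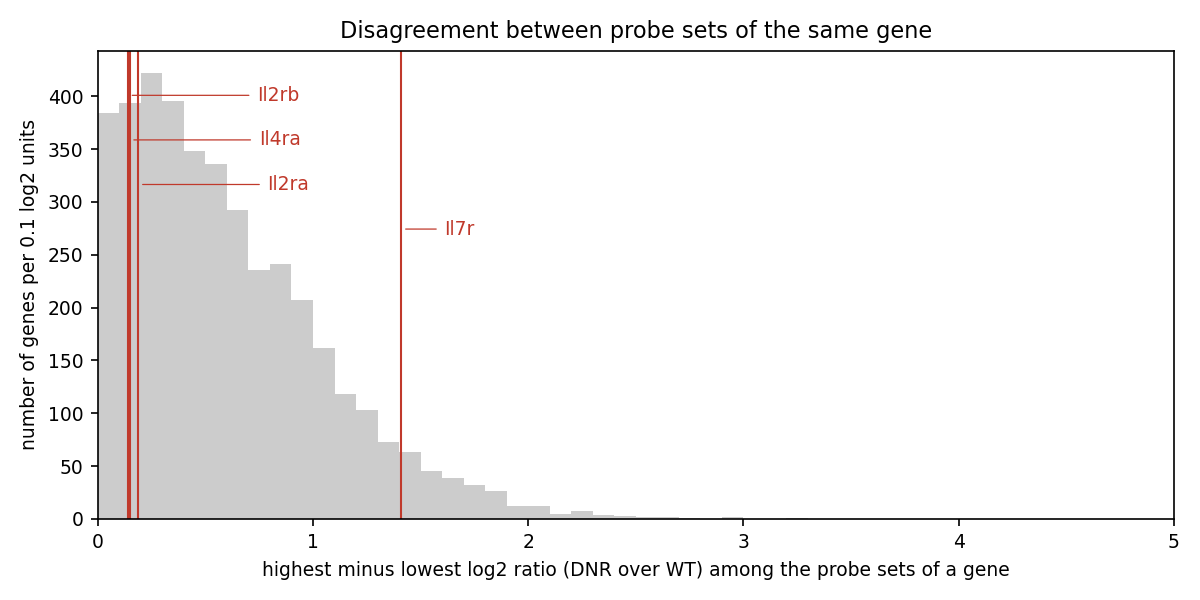
Number of genes (vertical axis) by the range of log2 ratios among their probe sets (horizontal axis), for the 3968 genes with several probe sets that exceeded the floor on each array. Il2rb, Il4ra and Il2ra (red lines) lie at 0.14 to 0.19, below the median of 0.51, whereas Il7r lies at 1.41.

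Conventional CD4 T cells carry more Il7r than Tregs, so their markers are given beside it. Of 4 such markers, 3 were above the floor on the DNR and 2 on the WT array, and their summed signal was 1522 in DNR and 1167 in WT Tregs. Over all 18193 genes, 11094 exceeded the floor on the DNR and 10114 on the WT array. Tnfsf8, with the highest single reading, had 680 in DNR and 397 in WT Tregs. Pde3b, the brighter of the pair by its mean over both arrays, was level, with 654 in DNR and 672 in WT Tregs. Cd40lg, a defining gene of activated conventional helper cells, had 20.5 in DNR and 5.69 in WT Tregs, below the floor in both. Their part in the Il7r values was not tested.

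Il4ra was slightly higher in DNR Tregs by all 3 of its probe sets. The brightest (1421034_a_at) read 1643 in DNR Tregs and 1514 in WT Tregs, with a log2 ratio of 0.12. The others read 200.3 and 183.8 in DNR Tregs, against 166.6 and 155.1 in WT Tregs, with log2 ratios of 0.27 and 0.24. The dimmest of these (1447858_x_at) may bind other transcripts too. The 3 probe sets agreed within the SD of 0.39, and none reached 1.5-fold.

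Il21r had 1 probe set (1450456_at), which read 699 in DNR Tregs and 890 in WT Tregs. Its log2 ratio of -0.35, a 1.27-fold lower signal, was the largest among the 6 genes by their brightest probe sets, but 56.2% of measured genes had a smaller one in size, which places it near the middle of the array. Il21r and Il4ra are neighbours among the protein-coding genes of chromosome 7, and they went opposite ways (-0.35 and 0.12). B cells also carry Il4ra and Il21r. Of 7 B cell markers with a probe set, 2 were above the floor on the DNR and 4 on the WT array, beside 11094 and 10114 of all 18193 genes. The signals of the 7 markers summed to 1560 in DNR and 1171 in WT Tregs, whereas their median signal was 76.4 in DNR and 126.4 in WT Tregs. The brightest was Cd79b, with 869 in DNR and 666 in WT Tregs. Cd22, a B cell lectin receptor, was the 1 marker of this list at least 2-fold higher in DNR Tregs (444 in DNR and 162 in WT Tregs). The other 2 measured markers went the other way and were below the floor on the DNR array: Blk (86.1 in DNR and 149.6 in WT Tregs) and Ms4a1 (76.4 in DNR and 126.4 in WT Tregs). Pax5, which defines the B lineage, had 9.64 in DNR and 17.1 in WT Tregs, both below the floor. The part of B cell RNA in these receptor values was not tested.

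**Figure D3:**
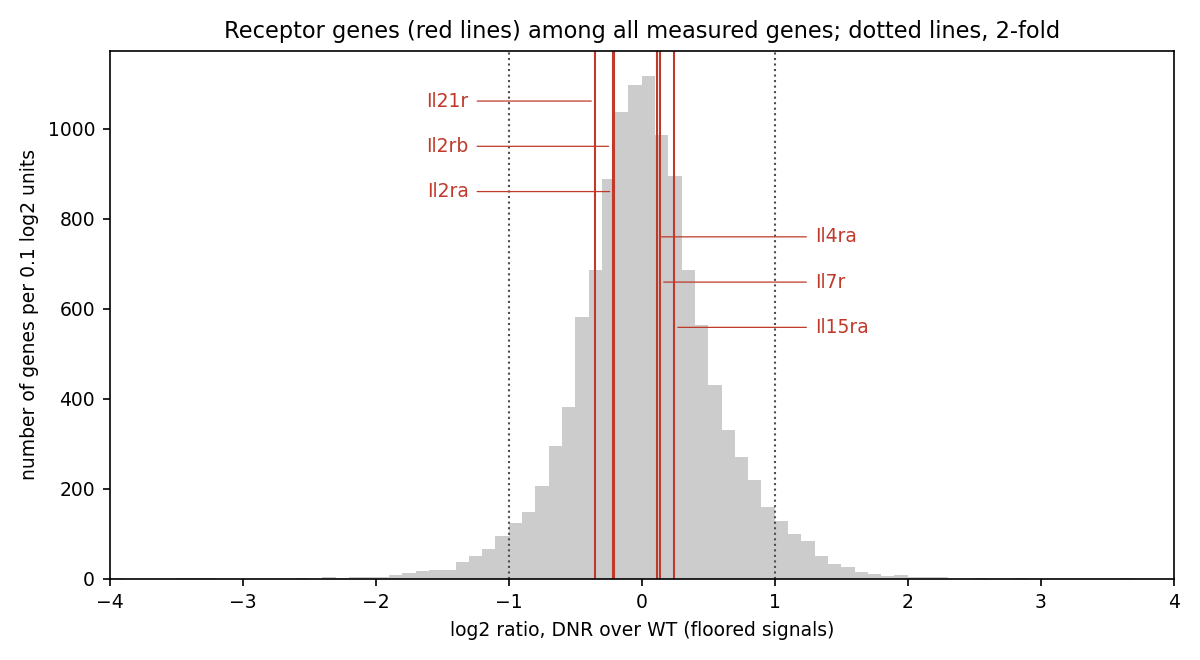
Distribution of the log2 ratio of DNR over WT (horizontal axis) over 11927 measured genes (grey bars, number of genes), with the 6 receptor genes as red lines and 2-fold as dotted lines. The receptor genes lie between -0.35 for Il21r and 0.24 for Il15ra, within the bulk of all genes.

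The ligands were dim on both arrays. Of 7 ligand genes, 0 were above the floor in WT Tregs and 3 in DNR Tregs. Il21, the cytokine of follicular helper cells, read 230.0 in DNR Tregs and 70.5 in WT Tregs and was at least 2.07-fold higher in DNR Tregs, a bound that shrinks below 2-fold when the floor is set at the 60th percentile. Il2 had 168 in DNR and 92.1 in WT Tregs, and Il4 had 137 in DNR and 5.22 in WT Tregs. Signals so close to the floor do not show whether the cells made these transcripts. The DNR array had the higher median signal over all probe sets (110.9 on the DNR and 91.0 on the WT array), so dim genes exceed the floor more often on it: 1813 genes did so in the DNR sample only and 833 in the WT sample only. Il7 and Il15, which stromal and myeloid cells make, were below the floor on both arrays, as were Il9 and Tslp.

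Of the chains that pair with these receptors outside the 7 genes, Crlf2 was well above the floor on both arrays. It encodes the chain that joins the IL-7 receptor alpha chain to form the receptor of thymic stromal lymphopoietin. Its signal was 5433 in DNR and 4627 in WT Tregs, a log2 ratio of 0.23. Il13ra1, which pairs with the IL-4 receptor alpha chain in non-lymphoid cells, had 159.7 in DNR and 100.7 in WT Tregs, close to the floor. Il9r and Il13ra2 were below the floor on both arrays.

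The kinases and STATs downstream differed by less than 2-fold in all 6 genes with a named probe set. Of the 6, 4 had the lower signal in DNR Tregs, as had 5794 of 11927 measured genes. Jak1 had 8608 in DNR and 11442 in WT Tregs, a log2 ratio of -0.41, and its other probe sets were also lower (-0.24 and -0.21). Jak3, the kinase bound to the gamma chain, read 223 in DNR and 140.1 in WT Tregs, a log2 ratio of 0.67 at signals near the floor. Stat5a had 1046 in DNR and 1550 in WT Tregs, and Stat5b 2564 in DNR and 2944 in WT Tregs, so both genes of the STAT that IL-2 activates had log2 ratios under 0 (-0.57 and -0.20). Stat6 had a log2 ratio of -0.54, but 0.05 by its other probe set, and Stat3, which IL-21 activates, had 0.22. The list median was -0.30.

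Adaptors and lipid kinases of the pathway went both ways, with 0 of 8 measured genes higher and 2 lower by at least 2-fold. Shc1, an adaptor that the IL-2 receptor beta chain recruits, had 144 in DNR Tregs against 713 in WT Tregs, 4.96-fold lower, with the DNR signal near the floor. Sos1, an exchange factor that activates Ras, had 342 in DNR Tregs against 724 in WT Tregs, 2.12-fold lower. The median of this list was -0.56, and -0.21 when probe sets of a gene were summarised by their median, where 1 gene was lower by at least 2-fold.

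Genes listed as feedback inhibitors of the pathway had the higher signal in DNR Tregs in 4 of 7 cases, none by 2-fold. Of 11927 measured genes, 6133 had the higher signal. Cish, a STAT5 target that dampens IL-2 receptor signalling, had 9587 in DNR and 6348 in WT Tregs, a log2 ratio of 0.59. Socs2, also induced by STAT5, had 4648 in DNR and 3149 in WT Tregs (0.56), and another of its probe sets gave 0.64. Socs1 and Socs3 had log2 ratios of 0.24 and 0.39. The Socs3 value comes from a probe set that may bind other transcripts too, and its remaining probe sets gave -0.33 and -0.09. The phosphatase genes Ptpn2 and Ptpn6 and the adaptor gene Sh2b3 had the lower signal (-0.42, -0.48 and -0.47). The list median of 0.24 was -0.33 when such probe sets were left out and -0.09 when probe sets of a gene were summarised by their median.

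Targets of IL-2 and STAT5 had the higher signal in DNR Tregs in 18 of 24 genes, 2 by at least 2-fold, and 0 were lower by that much. With probe sets of a gene summarised by their median, 3 were higher by at least 2-fold. Of all 11927 measured genes, 6133 had the higher signal, and 4.0% were higher by at least 2-fold. Over the list the median was 0.31, beside 0.01 over all measured genes. Gzmb, the cytotoxic protease granzyme B, had 13369 in DNR Tregs against 1793 in WT Tregs, 7.46-fold higher. Prdm1, which encodes the effector regulator Blimp-1, had 690 in DNR Tregs against 277 in WT Tregs, 2.49-fold higher. Other signals also act on these genes, and the part of IL-2 in their values was not tested. The receptor genes Il2ra and Il2rb had log2 ratios of -0.21 and -0.22. Of the 24 targets, Bcl2, which limits apoptosis, had a log2 ratio of -0.76, with 4 other probe sets at -0.55 to 0.19, and Lta, the gene of lymphotoxin alpha, -0.81. Bcl2 and Lta are named after their values were seen.

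Targets of IL-21 and STAT3 had a median of 0.998 over 7 genes, 6 of them with the higher signal and 3 higher by at least 2-fold: Prdm1, Maf and Il21. Of all 11927 measured genes, 6133 had the higher signal, and 4.0% were higher by at least 2-fold. When the floor was set at the 60th percentile, the median was 0.49 and 2 genes were higher by 2-fold. Maf, a transcription factor that drives Il10 and Il4, had 8586 in DNR and 3875 in WT Tregs. It is also the 1 gene among 6 measured targets of IL-4 and STAT6 that was at least 2-fold higher, and 0 of those were lower by that much. That list had a median of 0.31. The call rests on the brightest Maf probe set: the 4 others above the floor on both arrays gave log2 ratios of 0.45 to 0.95, and with probe sets summarised by their median 0 of the IL-4 and STAT6 targets and 2 of the IL-21 and STAT3 targets were at least 2-fold higher. Il21r and Il4ra, the receptor genes for these cytokines, had log2 ratios of -0.35 and 0.12.

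**Figure D4:**
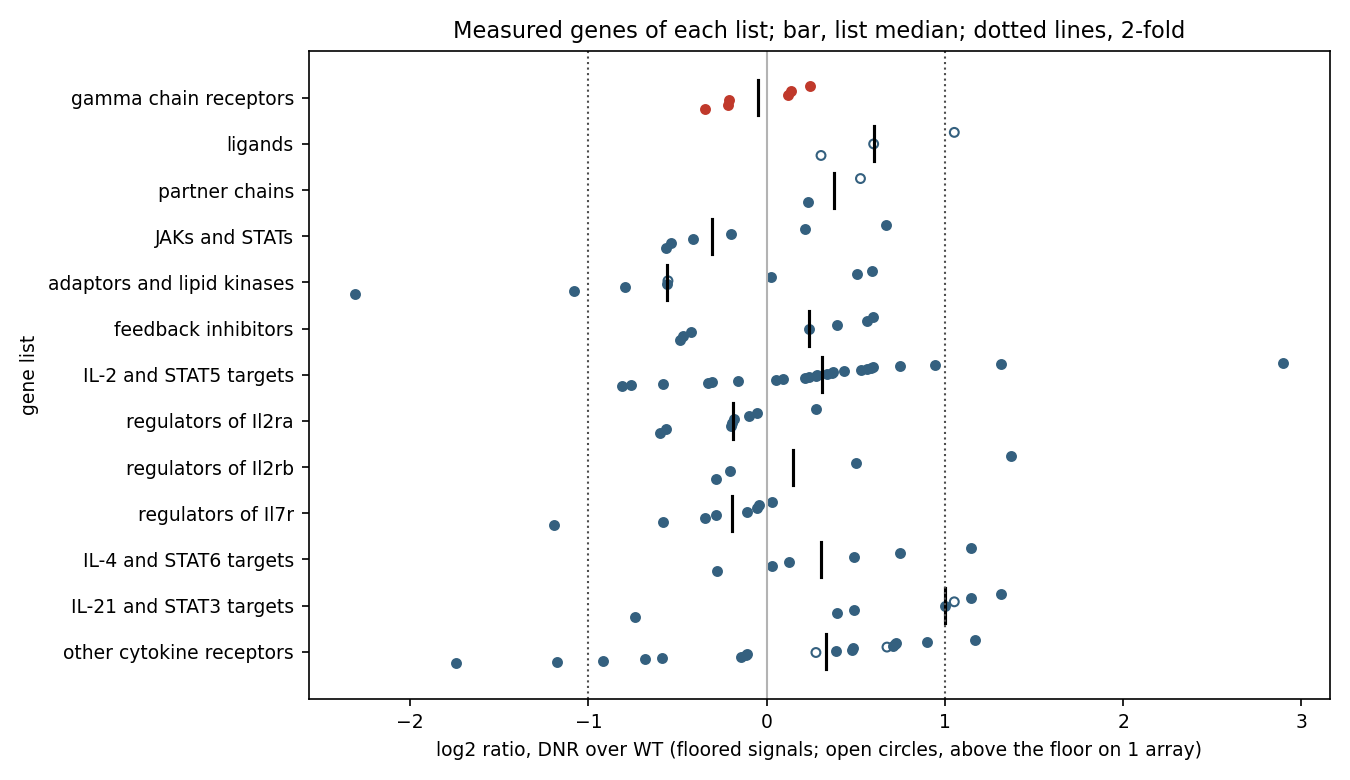
Log2 ratio of DNR over WT (horizontal axis) of each measured gene in the receptor list (red) and 12 other lists of the pathway (blue; open circles, above the floor on 1 array only), with black bars at the list medians and dotted lines at 2-fold. The receptor genes lie between -0.35 and 0.24, whereas IL-2 and STAT5 targets reach 2.90 for Gzmb and adaptors -2.31 for Shc1.

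Genes listed as regulators of the receptor genes, most of them transcription factors, were compared next. Of the 8 measured regulators of Il2ra, 0 differed by at least 2-fold by the brightest probe set, and the brightest genes were Satb1 (5548 in DNR and 8408 in WT Tregs), a chromatin organiser, and Nfatc1 (4731 in DNR and 5376 in WT Tregs), which calcium signals activate. Other probe sets of these genes above the floor on both arrays, 4 for each, gave log2 ratios of -1.31 to -0.05 for Satb1 and 0.22 to 0.95 for Nfatc1, those of Nfatc1 opposite in direction to its brightest one (-0.18). Foxp3, named as the factor that defines these cells, had 4550 in DNR and 3754 in WT Tregs. Among 4 regulators of Il2rb, Tbx21, which encodes T-bet and is known to induce Il2rb, had 731 in DNR Tregs against 283 in WT Tregs, 2.59-fold higher, while Il2rb itself had a log2 ratio of -0.22. Among 8 regulators of Il7r, 7 had the lower signal in DNR Tregs, and Klf2, a factor of quiescent T cells, was lower by at least 2-fold (7930 in DNR and 18152 in WT Tregs). Of all 11927 measured genes, 5794 had the lower signal, and 2.93% were lower by at least 2-fold. Foxo1, which activates Il7r and Klf2, had a log2 ratio of -0.58 and is named after its value was seen. Zfp36l1, Runx1 and Gabpa, also named after their values were seen, had log2 ratios of -0.04, -0.05 and -0.11 by the brightest probe set. These were within the probe set SD of 0.39. Another Gabpa probe set gave 0.17 and another of Zfp36l1 gave -0.30. For Runx1, 3 others whose signals exceeded the floor in DNR and WT Tregs gave -0.68 to -0.24, the lowest past this SD. Il7r had log2 ratios of 0.13 and 1.54, and its relation to these regulators was not tested.

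Other cytokine receptor genes spread more widely on these arrays. Of 18 measured genes in a list of receptors for IL-1, IL-6, IL-12, IL-18, interferons and similar cytokines, 7 were within 1.5-fold. All 6 gamma chain receptor genes were, as were 77.4% of all measured genes. The median signal of the gamma chain receptor genes was 2282 in DNR and 2456 in WT Tregs. That of the other list was lower, with 683 in DNR and 575 in WT Tregs, and the part of signal level in its wider spread was not tested. In that list 1 gene was higher and 2 were lower by at least 2-fold: Il1rap, the IL-1 receptor accessory chain (515 in DNR and 229 in WT Tregs), Il6ra, the IL-6 receptor (1007 in DNR and 3367 in WT Tregs), and Ifngr2, a chain of the interferon-gamma receptor (437 in DNR and 988 in WT Tregs). A second probe set of each gave log2 ratios of 0.12 for Il1rap, -0.48 for Il6ra and -0.21 for Ifngr2. No test of the difference between the lists was made.

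The sort was checked against marker genes. All 7 Treg markers and all 7 T cell markers were above the floor on both arrays, with Ctla4 (52119 in DNR and 41217 in WT Tregs) and Cd3d (31996 in DNR and 30370 in WT Tregs) the brightest. Of the Treg markers, 4 had the higher and 3 the lower signal in DNR Tregs by the brightest probe set. Izumo1r, folate receptor 4, was 2.03-fold lower (1734 in DNR and 3515 in WT Tregs). Nrp1 and Ikzf4 had log2 ratios of -0.60 and -0.58. For Nrp1, 3 others whose signals exceeded the floor in DNR and WT Tregs gave -0.61 to 0.86, so they disagreed on its direction. Another Ikzf4 probe set gave -0.80. Macrophage and monocyte markers were above the floor in 8 of 10 genes on the DNR and 7 on the WT array. Their summed signals were 3675 in DNR and 4916 in WT Tregs, with Csf1r the brightest (1449 in DNR and 1799 in WT Tregs). Myeloid cells carry Il15ra and Il4ra, and the part of their RNA in those values was not tested. CD8 T and NK cells carry Il2rb. Their markers summed to 1249 in DNR and 1191 in WT Tregs over 6 genes, of which 5 were above the floor on each array and Eomes was the brightest (359.8 in DNR and 416 in WT Tregs). Of 10 neutrophil markers 4 were above the floor on the DNR and 2 on the WT array (summed signal 1476 in DNR and 707 in WT Tregs), Mmp9 being the brightest (537 in DNR and 184 in WT Tregs). Dendritic, erythroid, and mast cell and basophil markers were above the floor in 2 of 6, 1 of 4 and 2 of 6 genes on the DNR array and in 0 on the WT array. Their brightest genes were Siglech (157 in DNR and 82.9 in WT Tregs), Klf1 (116 in DNR and 7.92 in WT Tregs) and Gata2 (357 in DNR and 97.1 in WT Tregs). Over all 18193 genes, 11094 exceeded the floor on the DNR and 10114 on the WT array, and dim genes did so more often on the DNR array.

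The direction of each receptor gene was the same in all 8 settings of the processing, and its size changed most for Il7r. Changing or dropping the floor, or leaving out probe sets that may bind other transcripts, could not alter these values. The brightest probe sets were above every floor and none was left out. Only the median ratio set to 0, quantile normalisation and the median over probe sets could move them. Il2ra stayed between -0.30 and -0.19, Il2rb between -0.22 and -0.15 and Il21r between -0.35 and -0.31. Il4ra stayed between 0.12 and 0.24, Il15ra between 0.24 and 0.62 and Il7r between 0.13 and 0.84. No gene reached 2-fold in any of these settings.

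**Figure D5:**
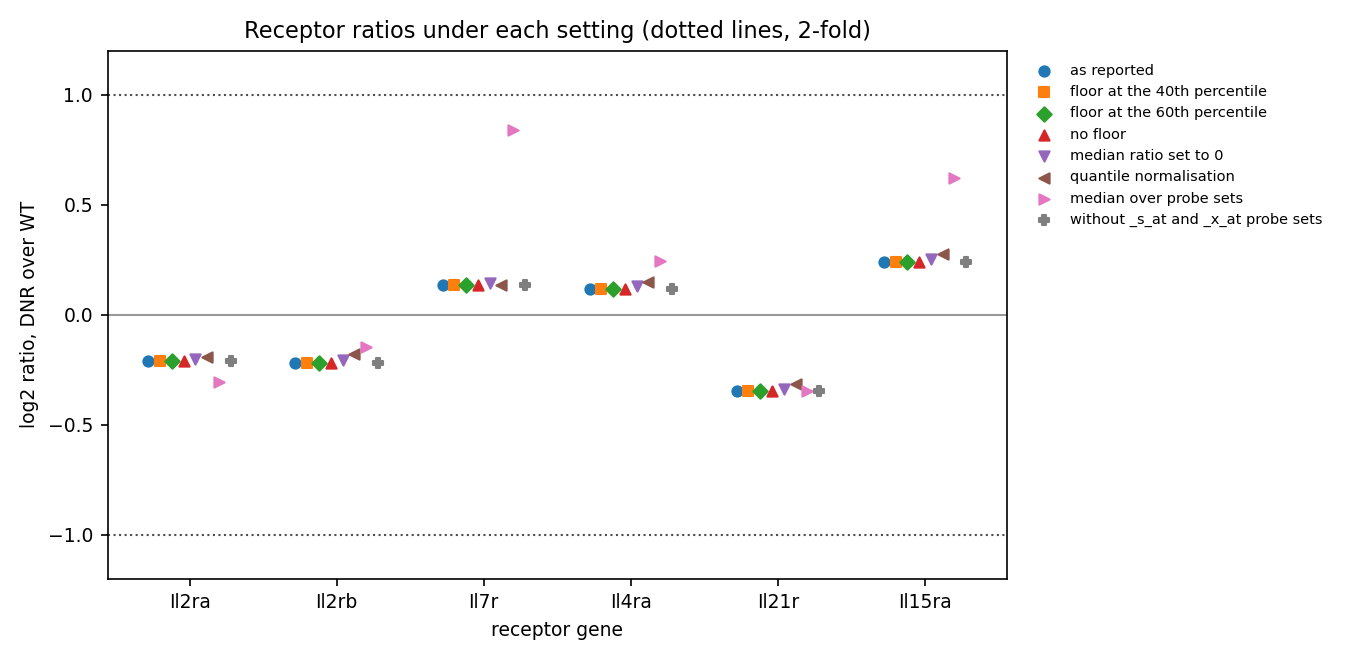
Log2 ratio of DNR over WT (vertical axis) of each of the 6 receptor genes under the 8 settings (symbols), with 2-fold as dotted lines. Il7r and Il15ra moved furthest, to 0.84 and 0.62 with the median over their probe sets.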

How the data were processed

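Total RNA of sorted splenic Tregs was labelled with biotin and hybridised to Affymetrix mouse arrays, per the labels' protocols. The deposited values are linear signal intensities, 1 for each probe set in each sample, which the authors made with MAS5, per the submitters' processing notes. The 2% trimmed mean was 500.0 on each array, so the values share a common scale. Detection calls and scanner values were not used here.

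After removal of 64 control probe sets, 45037 remained, of which 10092 had no single gene name. Entrez identifiers of 34741 of the 34945 named ones were found in RefSeq, and 0 symbols changed. Signals under the floor, the higher of the array medians (110.9), were raised to it before log2 was taken, with Python 3.11.15 and pandas 2.3.3. The brightest probe set by mean signal represented a gene, which gave 11927 measured genes of 18193. Of these, 9281 were above the floor on both arrays. On the DNR array 22518 probe sets exceeded the floor and on the WT array 20367. No test between genotypes is possible for single arrays, so sizes are given, and 2-fold served as the threshold. The calculation was tested on simulated data. Probe sets ending in _s_at or _x_at were taken as able to bind several transcripts.

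Named were all receptor genes, the ligands, partner chains, kinases, STATs and feedback inhibitors, up to 6 genes per other list that differed by at least 2-fold or its 2 brightest, and the brightest gene of each marker list. Foxp3, Bcl2, Lta, Foxo1, Zfp36l1, Runx1, Gabpa, Cd40lg, Pde3b, Pax5, Cd22, Blk, Ms4a1, Izumo1r, Nrp1 and Ikzf4 were named beside these after their values were seen. With 2 arrays each gene has 1 ratio, so no gene could be named as most alike in pattern. The receptor genes, lists and motifs were chosen with earlier results of these data known. Some listed genes and 8 markers lack a singly named probe set, Il2rg, Lck, Nfkb1, Il1rl1 and Il23r among them, and are not reported here.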

Additional observations from a re-analysis of the deposited data

How the results depend on the processing

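The 6 receptor genes were recomputed with 2 other floors (the 40th and 60th percentile), with no floor, with the median ratio set to 0, with quantile normalisation, with probe sets of a gene summarised by their median, and without probe sets ending in _s_at or _x_at. The count of receptor genes at least 2-fold higher or lower was 0 in each of these. By the brightest probe sets it was also 0 at thresholds of 1.5-fold and 3-fold, where the 3-fold result follows from that at 2-fold. With the median over probe sets, Il7r (0.84) and Il15ra (0.62) were more than 1.5-fold higher in DNR Tregs. The changes of floor and the removal of probe sets left the values of the 6 genes as they were, so they were no check on the 2-fold count. Their median log2 ratio ranged from -0.05 to 0.05, and was above 0 only with the median over probe sets (0.05). For single genes and other lists, 302 of 326 values moved by less than the probe set SD or, for counts, by no more than 1.5 times, and 24 moved further. Counts over all measured genes moved most: 477 higher and 350 lower became 1026 and 550 at the lower floor, 250 and 246 at the higher one, 3617 and 2655 with no floor, 1526 and 1175 at 1.5-fold, and 56 and 63 at 3-fold. No other scaling shifted the median of all measured genes by more than 0.1 on the log2 scale. No replicate could be left out. No paired analysis was possible because each genotype has 1 array. Signals near the floor limit Jak3, the ligands and the dimmer probe set of Il15ra.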
